A study of Mus musculus with 24 samples.

Results

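Wnt proteins are secreted lipid-modified ligands that bind Frizzled receptors on neighbouring cells. With Lrp5 or Lrp6 as co-receptor they stop the Axin complex from degrading beta-catenin, which then acts with Tcf/Lef factors on target genes, while other ligands signal through Frizzled without beta-catenin in the control of cell polarity. Dickkopf (Dkk) proteins block the Lrp co-receptors or modulate them, secreted Frizzled-related proteins (Sfrp) bind the ligands outside the cell, and R-spondins (Rspo) raise the amount of receptor at the surface. In mouse embryonic stem cells (ESCs) Wnt signalling is known to favour self-renewal, and in the embryo it is needed for the primitive streak. The genes described here are these ligands, receptors and modulators and the 2 Axin genes. They were taken by symbol alone, as the Wnt, Fzd, Dkk, Sfrp, Rspo, Lrp5, Lrp6, Axin1 and Axin2 symbols of the deposited table, and 45 of its 54242 symbols matched. They comprised 19 Wnt ligands, 10 Frizzled receptors, 2 Lrp co-receptors, 4 R-spondins, 4 Dickkopf, 4 Sfrp and 2 Axin genes.

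The study measured RNA of CGR8 cells, a feeder-independent mouse ESC line, in several groups of cells. There were 24 libraries, 3 independent ones in each of 8 groups. Cells received a pool of non-targeting siRNAs (si-CTL) or of siRNAs against Rsl24d1 (si-Rsl24d1), a factor of large ribosomal subunit biogenesis, without or with rescue. They were collected at day 0 in serum with LIF (the group named ESC) or after 4 days in serum with 10 nM retinoic acid (RA; the group named DIF). Rescue means an Rsl24d1 open reading frame induced by doxycycline from an integrated vector. The labels give the rescue groups the vector RSL24D1_OE with Dox and the groups without rescue empty_vector without Dox, so the vector, doxycycline and the ectopic protein change together and cannot be told apart. The sample descriptions put the ESC groups at 48 h, whereas the protocol gives 72 h after transfection for the whole study, and the design text names LIF in the differentiation medium where the sample labels do not. Each group is a population of 1 line transfected transiently with siRNA.

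The values are log2(TPM + 1), that is, the base 2 logarithm of the TPM, transcripts scaled to 1000000 per library, plus 1, a scale that corrects for transcript length and for the library total, so levels can be compared between genes and the depth behind a value is unknown. A gene was tested when its mean over the 24 libraries was at least 0.5 log2(TPM + 1), which 16447 genes and 36 of the 45 passed. Below, a gene is called when its limma adjusted p was under 0.01 and its change over 1.8-fold, which is 0.848 log2. A fold change on this scale understates the change of low genes. In such bulk samples more cells of one type and more RNA per cell cannot be told apart.

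Rsl24d1 itself fell at day 0 without rescue from 7.15 ± 0.06 to 5.20 ± 0.11 log2(TPM + 1) (SD, n = 3), by 1.95 log2 (SE 0.07, limma adjusted p = 3.2e-14). With rescue the difference was -0.50, and at day 4 without rescue it was -0.04 (95% CI -0.19 to 0.11, limma adjusted p = 0.66). The first principal component of all tested genes held 54.55% of the variance and separated the days. At day 4, replicate 1 of si-Rsl24d1 without rescue stood apart from the other two of its group (second component 0.03 against -15.23 and -13.65), so counts and summed levels of that group are given with and without it. Pluripotency markers, which define the labelled cell type, were high at both days, with a summed level of 1526 to 1730 TPM over the day 4 libraries. The sum was 2389 to 2442 TPM in si-CTL and 1730 to 1770 TPM in si-Rsl24d1 at day 0 without rescue, where 2 of 7 were called lower (Esrrb -1.09 and Zfp42 -0.96) and none higher. In the same comparison no tested marker of primitive endoderm (0 of 5), streak and mesoderm (0 of 5), neural cells (0 of 4), trophectoderm (0 of 4) or fibroblasts (0 of 6) was called. The summed streak and mesoderm level was nonetheless lower, at 17.1 to 18.5 TPM in si-CTL and 10.3 to 13.7 TPM in si-Rsl24d1. The fibroblast sum was 38.4 to 48.0 and 28.5 to 29.9 TPM, and the primitive endoderm, neural and trophectoderm sums overlapped. The part of these marker changes in the Wnt results was not tested.

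For the ligands that the results turn on, the sequence before the gene start shows the kind of promoter these genes have. RefSeq entries (GRCm38.p6) were found for 28 of the 45 genes and for 4 of the 7 called at day 0, and 3 of those are printed because their window lies wholly or mostly outside the gene as annotated. Each is the 250 bases before the RefSeq start on the strand of the gene, 5′ to 3′, with every CpG in capitals. Wnt3 is at chr11:103773925-103774174, Wnt6 at chr1:74771642-74771891 and Wnt9a at chr11:59306680-59306929, all on the plus strand, and the last 25 bases of the Wnt3 window and 2 of the Wnt9a window fall inside the gene in GENCODE.
Wnt3: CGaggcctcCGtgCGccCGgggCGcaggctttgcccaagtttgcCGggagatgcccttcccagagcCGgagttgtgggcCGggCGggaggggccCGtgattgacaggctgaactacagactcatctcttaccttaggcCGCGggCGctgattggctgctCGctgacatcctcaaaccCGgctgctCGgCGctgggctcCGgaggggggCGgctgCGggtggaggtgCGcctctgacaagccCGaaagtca
Wnt6: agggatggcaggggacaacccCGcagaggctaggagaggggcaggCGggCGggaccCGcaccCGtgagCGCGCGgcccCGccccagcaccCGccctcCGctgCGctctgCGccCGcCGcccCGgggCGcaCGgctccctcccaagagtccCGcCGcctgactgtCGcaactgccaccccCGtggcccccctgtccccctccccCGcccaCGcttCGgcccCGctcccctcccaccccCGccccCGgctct
Wnt9a: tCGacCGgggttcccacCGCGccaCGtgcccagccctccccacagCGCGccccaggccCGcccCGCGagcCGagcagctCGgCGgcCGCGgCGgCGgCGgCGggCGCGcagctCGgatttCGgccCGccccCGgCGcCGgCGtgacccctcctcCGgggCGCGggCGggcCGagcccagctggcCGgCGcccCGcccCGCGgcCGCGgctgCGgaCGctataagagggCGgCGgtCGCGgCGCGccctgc
These windows held 22, 28 and 48 CpG dinucleotides at 68.0%, 79.6% and 84.4% GC. Such density was usual for the family: the median over its 31 windows was 69.2% GC and a CpG observed over expected ratio of 0.768, against 52.4% and 0.374 over the 32851 windows of the same length from all genes. A Tcf/Lef motif, spelled CTTTGAA or CTTTGAT and searched on both strands, was present in 3 of the 31 windows (9.68%) and in 7.48% of all windows. A retinoic acid response element of the DR5 type, searched by that name on both strands, was in 0 of the 31 and in 0.088% of all. None of the 3 printed windows held either, which says only that these letters are not in these bases.

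At the start, the levels in control ESCs, which received non-targeting siRNAs, give the scale. Frizzled receptors were far more abundant than ligands in si-CTL cells at day 0 without rescue, with a summed level of 89.6 to 102 TPM over the 10 receptors against 19.1 to 20.1 TPM over the 19 ligands. Among receptors the order was Fzd7 (36.8 ± 2.7 TPM, SD, n = 3), Fzd5 (21.5 ± 2.6), Fzd2 (15.6 TPM on average) and Fzd10 (6.38), the first 4 separated from one another in every library and Fzd10 overlapping Fzd6 (5.35). Among ligands Wnt7b led at 3.66 TPM, above Wnt3 in every library. Wnt3 (3.02), Wnt9a (2.59) and Wnt8a (2.36) each overlapped the next ligand in the order, for Wnt8a that being Wnt4 (1.95). Wnt4 lay above Wnt6, the ligand after it, in every library. The co-receptors Lrp5 and Lrp6 were at 15.7 and 13.1 TPM and Axin1 at 28.4 TPM. At the low end, Dkk4 was listed at 0 in 17 of the 24 libraries, Wnt1 in 4 and Wnt2 in 1.

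**Figure D1:**
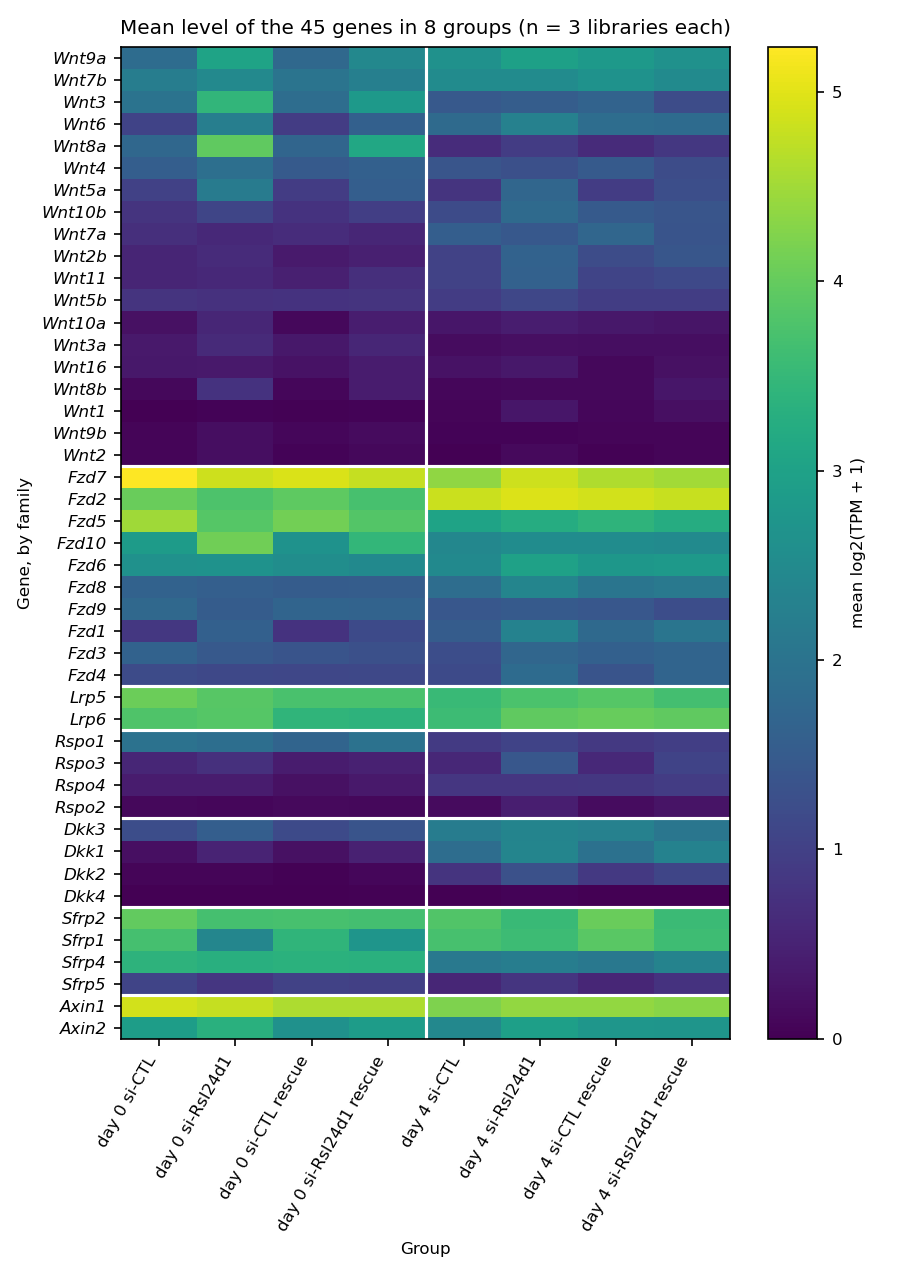
Mean log2(TPM + 1) of the 45 genes (rows, ordered by family and mean level) in the 8 groups (columns, 3 libraries each), from dark for 0 to yellow for the highest level. Wnt8a, Wnt3 and Fzd10 are brighter in the day 0 si-Rsl24d1 columns than in the day 0 si-CTL columns, and Dkk1, Dkk2 and Dkk3 are brighter at day 4.

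The first comparison asks what siRNA against Rsl24d1 changed in self-renewing cells without rescue. The limma fit called 7 of the 36, 6 higher and 1 lower, where 4.18% of all 16447 genes were called (3.40% higher, 0.772% lower). Of the 6 genes that rose, 5 were ligands, Wnt8a, Wnt3, Wnt9a, Wnt6 and Wnt5a, out of 12 ligands tested. The other was the receptor Fzd10, and the gene that fell was the ligand-binding inhibitor Sfrp1. The remaining 29 were not called, and the median change of the 36 was 0.01 log2, against -0.01 over all genes, with 20 estimates positive and 16 negative. The 12 tested ligands had a median of 0.33 log2, 10 of them positive.

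Wnt8a, a ligand of the early streak, changed most. Its 3 si-CTL libraries were at 1.85, 1.83 and 1.54 log2(TPM + 1) and its 3 si-Rsl24d1 libraries at 3.96, 3.91 and 4.01. The groups lay far apart, and the rise was 2.22 log2 (SE 0.08, 95% CI 2.06 to 2.38, limma adjusted p = 2.7e-14), from 2.36 to 14.6 TPM on average. Wnt3, the ligand known to be required for streak formation, was at 2.07, 1.89 and 2.06 in si-CTL and at 3.46, 3.39 and 3.52 in si-Rsl24d1, a rise of 1.45 log2 (SE 0.10, adjusted p = 4.0e-10).

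Wnt9a was at 1.805, 1.90 and 1.83 log2(TPM + 1) in si-CTL and at 3.07, 3.00 and 3.04 in si-Rsl24d1, a rise of 1.19 log2 (SE 0.08, limma adjusted p = 2.5e-10). Wnt6 went from 1.03, 1.06 and 1.09 to 2.34, 1.97 and 2.41 (1.18 log2, SE 0.13, adjusted p = 2.6e-07). Wnt5a, best known for signalling without beta-catenin, went from 1.02, 1.03 and 0.97 to 2.28, 2.20 and 2.06 (1.17 log2, SE 0.11, adjusted p = 5.1e-08). In all 3 ligands every si-Rsl24d1 library was above every si-CTL library.

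Fzd10 was at 2.88, 2.91 and 2.86 log2(TPM + 1) in si-CTL and at 4.11, 4.08 and 4.10 in si-Rsl24d1, which is 1.21 log2 higher (SE 0.08, limma adjusted p = 1.9e-10). It thereby rose from the fourth to the second Frizzled by TPM. Sfrp1 went the other way, from 3.79, 3.63 and 3.64 to 2.48, 2.41 and 2.35, a fall of -1.27 log2 (SE 0.10, adjusted p = 2.2e-09). No library of one group reached the other in either gene. Groups that did not overlap were common here, at 51.1% of all genes.

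In sum over the 19 ligands the level was 49.6 to 53.5 TPM in si-Rsl24d1 against 19.1 to 20.1 TPM in si-CTL. The makeup changed with it. Wnt8a supplied 12.0% of the ligand total in si-CTL and 28.0% in si-Rsl24d1, and Wnt7b, the leading ligand of si-CTL cells, went from 18.7% to 8.62%. The order in si-Rsl24d1 was Wnt8a, Wnt3, Wnt9a and Wnt7b, the first 3 separated from the next in every library. The summed Sfrp level was 36.3 to 37.9 TPM in si-CTL and 25.2 to 26.7 TPM in si-Rsl24d1, and the summed Frizzled level was 89.6 to 102 and 81.5 to 86.0 TPM.

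**Figure D2:**
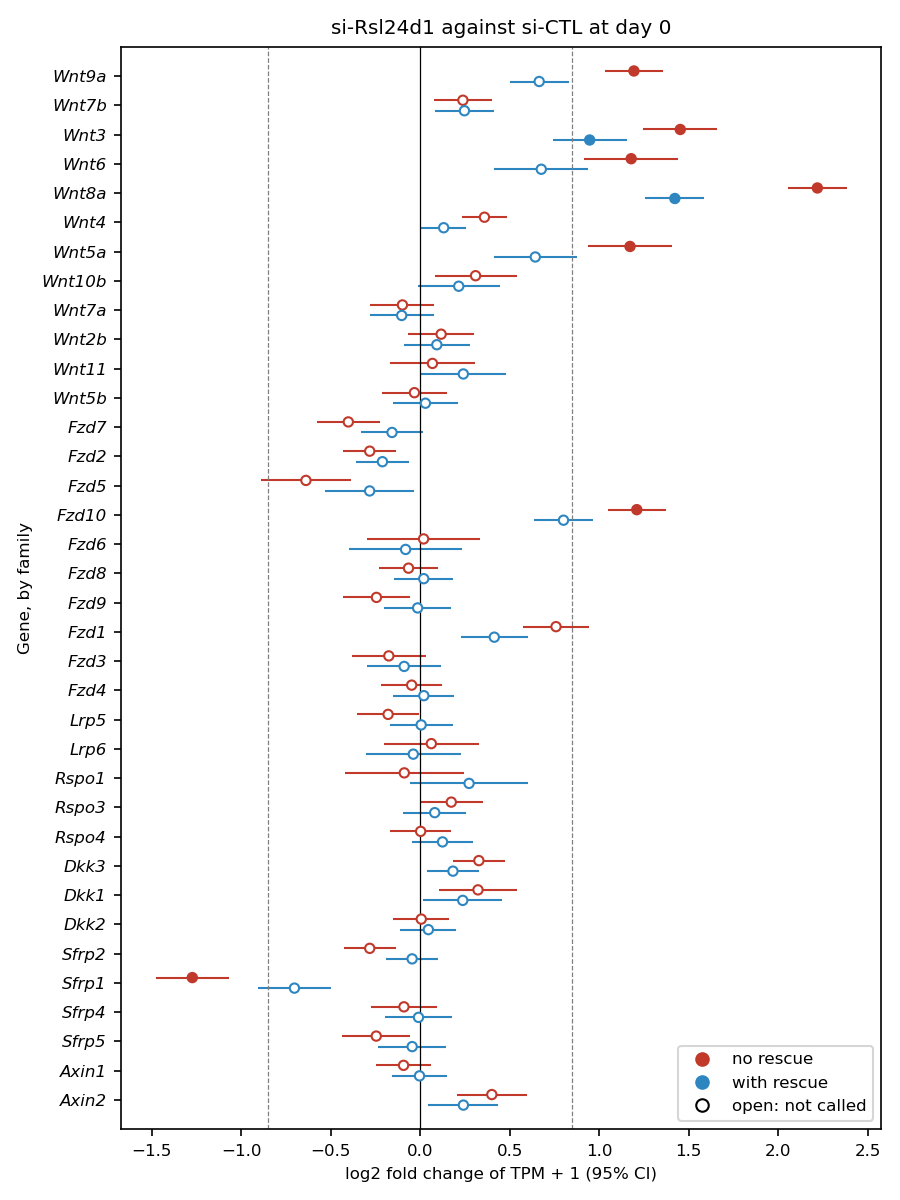
Log2 fold change of TPM + 1 between si-Rsl24d1 and si-CTL at day 0 for the 36 tested genes, without rescue (red) and with rescue (blue), as estimate and 95% confidence interval from limma with 3 libraries per group. Filled points are called, open points are not, and dashed lines mark 1.8-fold. There are 6 genes to the right and 1 to the left without rescue, and the estimates of all 7 are nearer 0 with rescue.

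The adjusted p without the fold threshold was passed by 15 genes, 10 higher and 5 lower, where 30.4% of all genes passed it (14.3% higher, 16.1% lower). Beyond the 7 above these were Fzd1 (0.76 log2), Axin2 (0.40), Wnt4 (0.36) and Dkk3 (0.33) on the higher side, and Fzd5 (-0.64), Fzd7 (-0.40), Fzd2 (-0.28) and Sfrp2 (-0.28) on the lower side. Fzd7, Fzd5 and Fzd2 are the leading receptors of si-CTL cells, and all 3 were lower while Fzd10 and Fzd1 were higher. The co-receptors Lrp5 and Lrp6 did not pass.

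There were 7 ligands under the filter, and their tests come from the alternative without the filter. In it Wnt8b, the close relative of Wnt8a, was 0.65 log2 higher (limma adjusted p = 2.3e-09), with 0.07, 0.13 and 0.12 log2(TPM + 1) in si-CTL and 0.79, 0.70 and 0.79 in si-Rsl24d1. Wnt10a (0.33 log2, adjusted p = 9.6e-05), Wnt3a (0.25, 5.6e-05) and Wnt9b (0.12, 0.00058) also passed the adjusted p there, and none of these 4 passed the fold threshold. All 4 lie below 1 TPM, and the number of reads behind them is unknown. Of all 19 ligands 17 had a higher mean in si-Rsl24d1 in that fit, the exceptions being Wnt7a and Wnt5b. This count of signs stands without the share of all genes that were higher in that fit. It includes Wnt16 (0.006 log2), Wnt1 (0.03) and Wnt2 (0.13), which did not pass the adjusted p there.

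The called receptor and inhibitor lie apart from the ligands, Fzd10 on chr5:128600844-128604093 and Sfrp1 on chr8:23411502-23449632, and Wnt5a lies on chr14:28504750-28527448, all on the plus strand (GRCm38, GENCODE). In addition 4 pairs of the ligands are neighbours in the genome, which lets the values be read side by side. Wnt6 and Wnt10a share chr1:74771892-74804179 with 6.2 kb between them, Wnt3a and Wnt9a share chr11:59248033-59333552 with 16.2 kb, Wnt9b and Wnt3 share chr11:103727364-103817957 with 24.3 kb, and Wnt10b and Wnt1 share chr15:98770712-98793837 with 11.7 kb. In the first 3 pairs 1 partner was called higher and the low partner was higher too: Wnt10a went from 0.23, 0.19 and 0.29 log2(TPM + 1) to 0.53, 0.60 and 0.56, Wnt3a from 0.39, 0.34 and 0.35 to 0.65, 0.55 and 0.65, and Wnt9b from 0.07, 0.09 and 0.06 to 0.19, 0.19 and 0.20. Wnt10a, Wnt3a and Wnt9b were not called. In the fourth pair neither was called, and Wnt1 was between 0 and 0.11 in both groups. Wnt10b was also higher in every si-Rsl24d1 library, at 1.00 to 1.22 against 0.62 to 0.98 in si-CTL. Groups that did not overlap in this direction made up 23.8% of all tested genes, which do not include Wnt10a, Wnt3a, Wnt9b and Wnt1. Most ligands had a higher mean in this comparison, as given above, so a higher neighbour is not particular to these pairs. With 4 pairs this is a description. Reads of overlapping antisense genes, which the annotation has on the opposite strand for 14 of the 45 (Wnt5a, Wnt5b, Wnt6, Wnt7b, Wnt11, Fzd3, Fzd5, Fzd6, Rspo1, Rspo3, Rspo4, Sfrp2, Axin1 and Axin2), but for none of Wnt8a, Wnt3, Wnt9a, Fzd10 and Sfrp1, could enter a value if the libraries were not read by strand, and the sources differ on the kit.

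**Figure D3:**
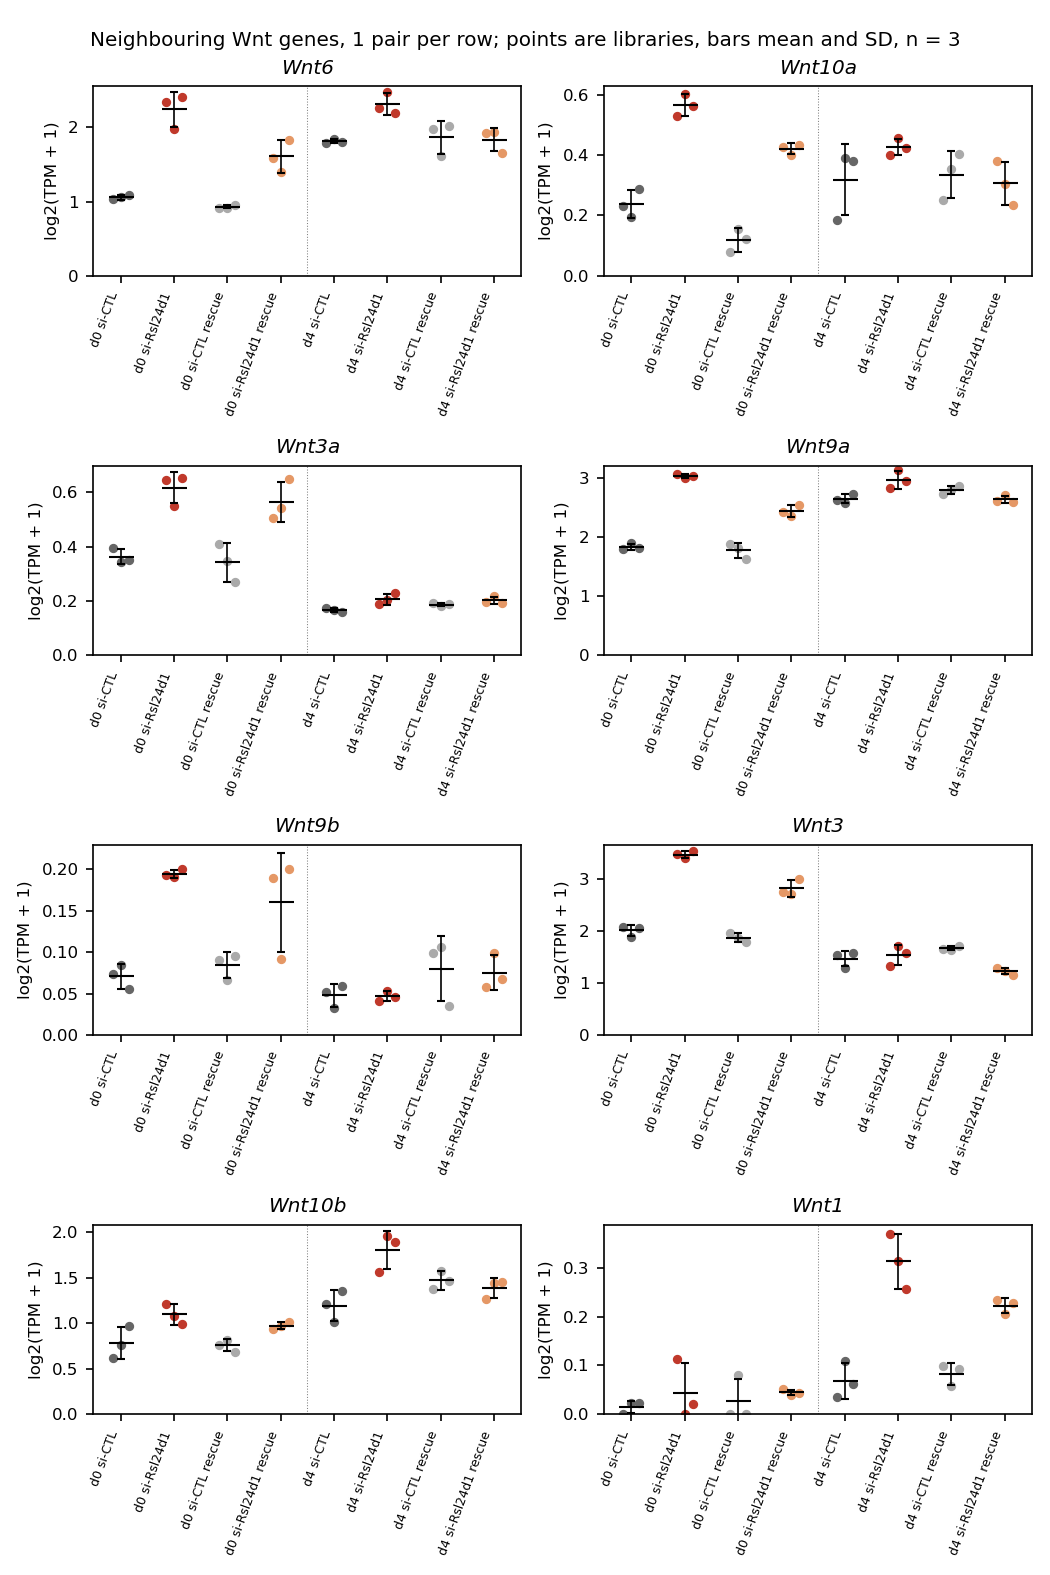
Log2(TPM + 1) in each library (points) of the 4 neighbouring Wnt pairs, 1 pair per row, in the 8 groups (d0, day 0; d4, day 4), with the mean and SD of 3 libraries as bars and a separate vertical scale from 0 in each panel. At day 0 without rescue the si-Rsl24d1 libraries lie above the si-CTL libraries in both panels of the first 3 rows and in the Wnt10b panel of the fourth. This held in that direction for 23.8% of all tested genes, which do not include Wnt10a, Wnt3a, Wnt9b and Wnt1.

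With rescue, the same siRNA comparison at day 0 called 2 of the 36, both higher, where 1.36% of all genes were called (1.17% higher). Wnt8a was at 1.71, 1.76 and 1.66 log2(TPM + 1) in si-CTL with rescue and at 3.13, 3.15 and 3.12 in si-Rsl24d1 with rescue (1.42 log2, SE 0.08, limma adjusted p = 7.3e-11). Wnt3 was at 1.95, 1.86 and 1.78 against 2.74, 2.697 and 3.00 (0.95 log2, SE 0.10, adjusted p = 5.8e-07). Wnt3 was under the fold threshold with si-CTL without rescue as the control (0.81 log2), where Sfrp1 was called lower instead, and with 2 added to the TPM (0.79). Without replicate 1 of si-CTL with rescue, Fzd10 was called as well, which made 3.

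The other 5 genes of the first comparison kept their direction below the fold threshold, with every library of one group apart from the other, as for 33.0% of all genes. Fzd10 was 0.80 log2 higher, Wnt6 0.68, Wnt9a 0.66 and Wnt5a 0.64, and Sfrp1 was -0.70, each with a limma adjusted p of at most 0.00052, a test that 13.7% of all genes passed. The change left with rescue was between 54.8% (Wnt5a) and 66.2% (Fzd10) of that without it, with a median of 57.4% over the 7 genes and of 63.2% over all 687 genes called without rescue. As the genes were called in the first of these comparisons, the ratio is given as a description. The summed ligand level was 31.4 to 35.8 TPM in si-Rsl24d1 with rescue against 16.3 to 18.6 TPM in si-CTL with rescue.

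**Figure D4:**
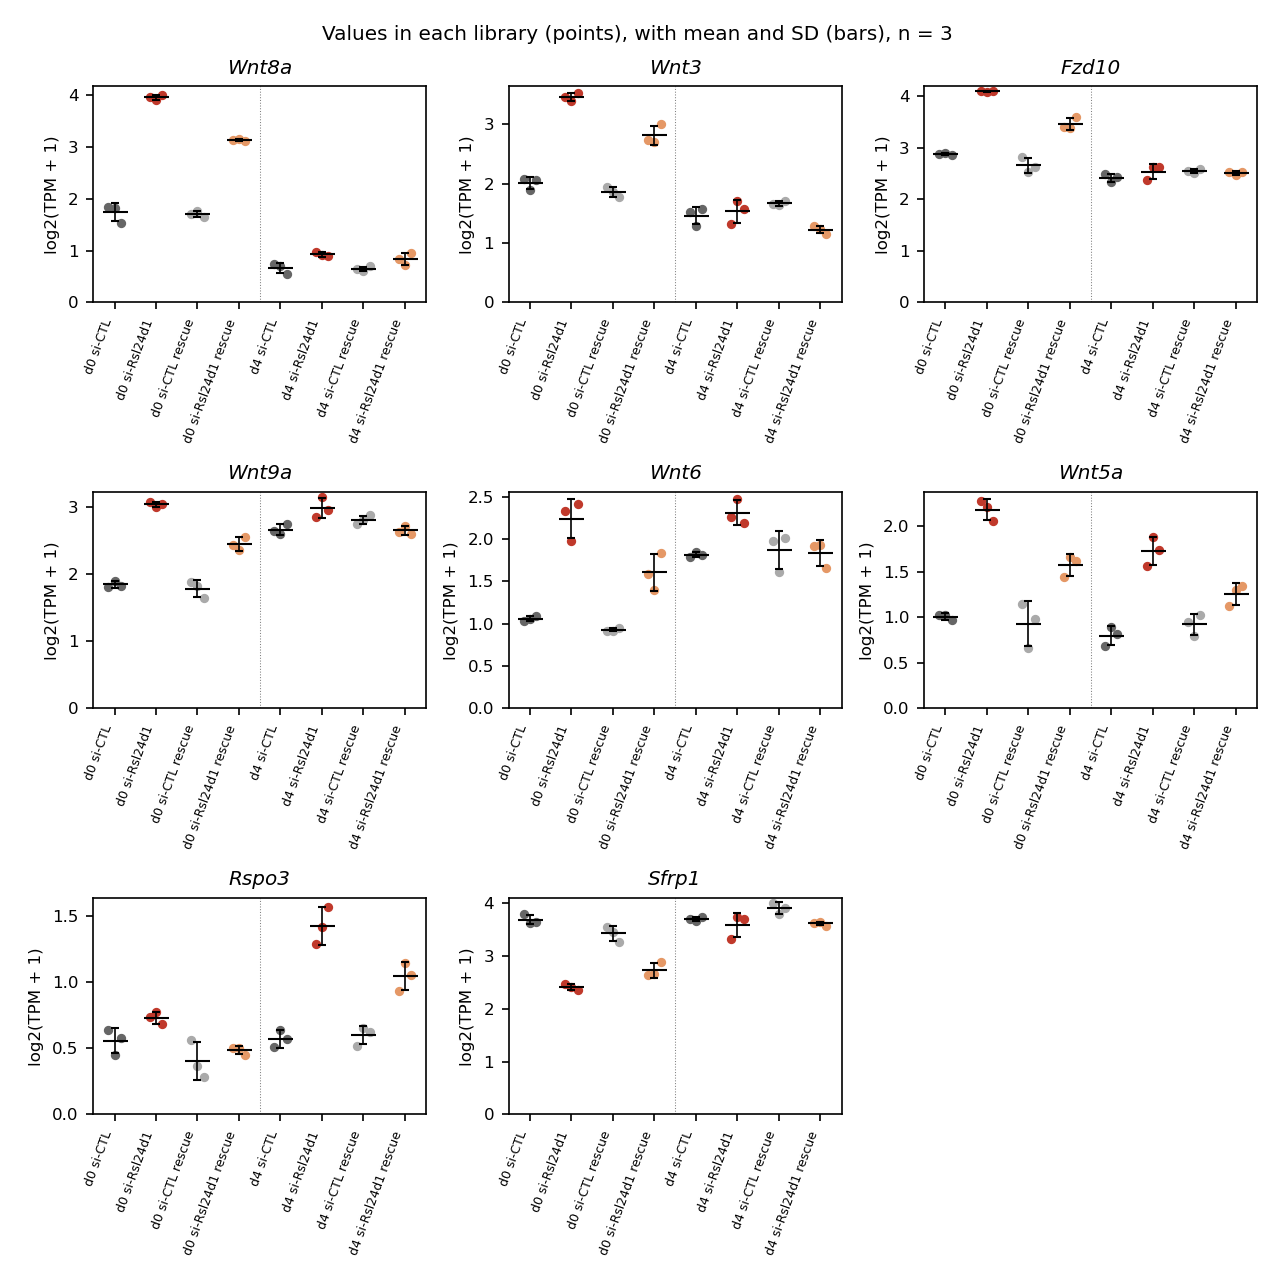
Log2(TPM + 1) in each library (points) of the 8 genes called in an siRNA comparison without rescue at day 0 or day 4, in the 8 groups, with the mean and SD of 3 libraries as bars and a separate vertical scale from 0 in each panel. At day 0 the si-Rsl24d1 libraries with rescue lie between those without rescue and the si-CTL libraries for the 7 genes called there, and at day 4 without rescue the siRNA groups overlap for Wnt3, Fzd10 and Sfrp1.

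Compared directly in si-Rsl24d1 cells at day 0, rescue called none of the 36 (0.280% of all genes were called), although 9 passed the limma adjusted p, all lower with rescue, as did 12.2% of all genes in that direction. They were Wnt8a (-0.83 log2, adjusted p = 7.6e-07), Wnt3 (-0.65), Wnt6 (-0.63), Fzd10 (-0.63), Wnt5a (-0.61), Wnt9a (-0.59), Fzd1 (-0.42), Axin2 (-0.42) and Wnt4 (-0.32). Without replicate 2 of si-Rsl24d1 without rescue, Wnt8a passed the fold threshold too. The median of all genes was -0.11 log2 in this comparison and -0.0023 when the TPM were rescaled by the median of ratios between libraries. In si-CTL cells rescue called none of the 36 and no gene of the 16447 by limma, and 12 of the 36 and 6739 of all genes had an unadjusted p under 0.05, where the median of all genes was -0.12 log2 as deposited. In si-Rsl24d1 cells 16 of the 36 (44.4%) had an unadjusted p under 0.05, close to the 42.9% of all genes. The siRNA by rescue interaction, which tests whether the siRNA effect differed with rescue, called 0 of the 36 (0.128% of all genes). It passed the adjusted p for Wnt8a (-0.80 log2, adjusted p = 0.0003) and Wnt9a (-0.53, adjusted p = 0.0075), as for 2.09% of all genes. The difference itself thus passed for those 2 ligands and not for the other 5, and 11 of the 36 had an unadjusted p under 0.05 (30.6%, against 17.6% of all genes). Without replicate 1 of si-CTL without rescue, Wnt8a passed the fold threshold of the interaction as well.

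Of 54 tested genes of the pathway outside the 45, 3 were called in the siRNA comparison at day 0 without rescue, all higher, which is 5.56% against 4.18% of all genes. Of 15 tested cytoplasmic components (the Axin complex partners, Gsk3 and Dvl among them), 8 nuclear components, 7 receptor turnover genes and antagonists and the 2 secretion genes, none was called. Among the other Wnt receptors Ptk7 rose by 1.12 log2, and among planar polarity genes Prickle1 (1.25) and Celsr1 (1.11) rose, 1 of 6 and 2 of 8. Of 8 tested genes known as transcriptional targets of beta-catenin none was called. Sp5 (0.63 log2) and Sp8 (0.64) passed the limma adjusted p as higher, and T (-0.81), which the list shares with the streak markers, and Myc (-0.54) passed it as lower. Axin2, a target as well as a brake of the pathway, was at 3.05, 2.81 and 2.89 log2(TPM + 1) in si-CTL and 3.43, 3.19 and 3.33 in si-Rsl24d1, higher by 0.40 log2 (adjusted p = 0.0018). The summed target level was 120 to 128 TPM in si-CTL and 99.2 to 108 TPM in si-Rsl24d1. Porcn, which acylates Wnt proteins, was -0.38 log2 and Wls, which carries them to the surface, 0.25 log2.

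The next comparison follows si-CTL cells without rescue from day 0 to day 4 of RA. There 8 of the 36 were called, 3 higher and 5 lower, where 15.0% of all genes were called (6.77% higher, 8.24% lower). These libraries at day 0 also serve as the controls of the siRNA comparison above. After median of ratios scaling 5 were higher and 4 lower, Fzd2 and Wnt9a joining the first and Fzd7 leaving the second, and the median of all genes, -0.10 log2 as deposited, was 0.00076. The Dickkopf genes and the ligand that rose were Dkk1, Dkk3 and Wnt7a. The genes that fell were the leading receptors Fzd5 and Fzd7, Sfrp4, Rspo1 and Wnt8a.

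Dkk1, a secreted antagonist of the Lrp co-receptors, was at 0.26, 0.06 and 0.30 log2(TPM + 1) at day 0 and at 1.83, 1.74 and 2.03 at day 4, a rise of 1.66 log2 (SE 0.11, limma adjusted p = 4.1e-11). It averaged 0.16 TPM at day 0 and 2.66 TPM at day 4. As Dkk1 passed the filter only through its day 4 levels, its call rests on the libraries that let it be tested. Dkk3, a divergent member of its family, went from 1.27, 1.26 and 1.21 to 2.30, 2.08 and 2.21 (0.95 log2, SE 0.07, adjusted p = 2.9e-10). Wnt7a went from 0.72, 0.76 and 0.66 to 1.60, 1.42 and 1.69 (0.86 log2, SE 0.09, adjusted p = 2.9e-08) and passed the fold threshold narrowly, as it was under it without day 0 replicate 3 (0.83 log2), day 4 replicate 1 (0.84) or day 4 replicate 3 (0.80). All 3 genes had no overlap between days, as for 28.9% of all genes in that direction.

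Fzd5 fell from 4.67, 4.44 and 4.35 log2(TPM + 1) to 3.10, 3.06 and 2.98, a change of -1.44 log2 (SE 0.12, limma adjusted p = 2.1e-09). Fzd7 fell from 5.35, 5.20 and 5.16 to 4.36, 4.32 and 4.45 (-0.86 log2, SE 0.08, adjusted p = 2.2e-08), which was -0.73 and under the fold threshold after median of ratios scaling and also without day 0 replicate 1 (-0.80) or day 4 replicate 2 (-0.83). Fzd2, which was 0.77 log2 higher and not called, thus led the receptors at day 4 with 27.3 TPM against 19.8 TPM for Fzd7.

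Sfrp4 fell from 3.32, 3.40 and 3.45 log2(TPM + 1) to 2.10, 2.29 and 1.96 (-1.27 log2, SE 0.09, limma adjusted p = 1.6e-10). Rspo1 fell from 2.29, 1.72 and 1.90 to 0.77, 0.97 and 0.94 (-1.08 log2, SE 0.16, adjusted p = 5.1e-06). Wnt8a fell from 1.85, 1.83 and 1.54 to 0.75, 0.70 and 0.55 (-1.07 log2, SE 0.08, adjusted p = 3.3e-10). Each gene was lower in all 3 day 4 libraries than in any day 0 library, which held for 43.5% of all genes. The 12 tested ligands went both ways, 7 higher and 2 lower by the adjusted p alone (24.1% and 36.7% of all genes), and Wnt9a became the leading ligand at 5.30 TPM, 21.8% of a ligand total of 22.9 to 25.7 TPM.

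**Figure D5:**
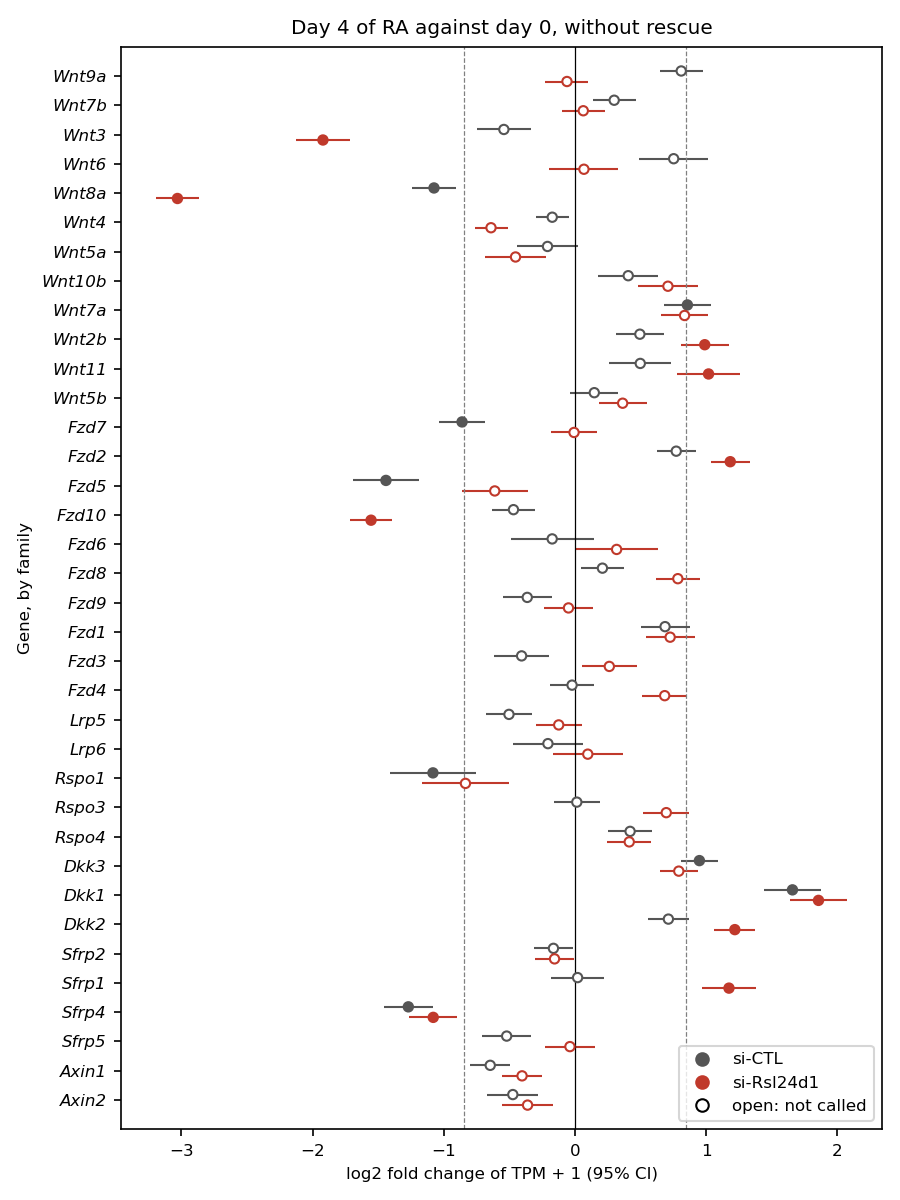
Log2 fold change of TPM + 1 between day 4 of RA and day 0 without rescue for the 36 tested genes, in si-CTL cells (grey) and si-Rsl24d1 cells (red), as estimate and 95% confidence interval from limma with 3 libraries per group. Filled points are called and dashed lines mark 1.8-fold; Wnt8a, Wnt3 and Fzd10 lie further left and Sfrp1 further right in si-Rsl24d1 cells than in si-CTL cells.

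Of the 54 pathway genes 13 were called in si-CTL cells between days, 1 higher and 12 lower (24.1%, against 15.0% of all genes). Among them 4 of 8 tested targets fell, by most T (-3.25 log2), Myc (-2.86) and Ccnd1 (-2.40), and none rose. Of 8 nuclear components 3 fell, Lef1 (-1.60), Tcf7l1 (-1.08) and Pygo2 (-0.93). The R-spondin receptor Lgr4 (-1.21), the Wnt deacylase Notum (-1.62) and the ubiquitin ligase Znrf3 (-0.88) fell as well, with the polarity genes Celsr3 (-1.05) and Vangl2 (-0.96). Nkd1 rose by 0.92 log2. Axin2 was -0.47 log2 and not called. Beside these, fibroblast markers stood at a summed 38.4 to 48.0 TPM at day 0 and 106 to 115 TPM at day 4, with 3 of 6 called higher and 1 lower, and primitive endoderm markers at 6.26 to 7.97 and 15.6 to 20.5 TPM with 2 of 5 called higher. Trophectoderm markers stood at 5.64 to 8.83 and 20.2 to 24.4 TPM with 2 of 4 called higher. Neural markers went the other way, from 87.4 to 94.0 TPM to 34.8 to 35.4 TPM with 1 of 4 called lower, and of the streak and mesoderm markers (17.1 to 18.5 and 4.14 to 5.27 TPM) 2 of 5 were called lower, T being also one of the targets. Of the pluripotency markers 1 of 7 was called lower, and their sum was lower too (2389 to 2442 and 1554 to 1651 TPM). Their part in the Wnt results was not tested.

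In si-Rsl24d1 cells without rescue the same 4 days called 10 of the 36, 6 higher and 4 lower, where 14.1% of all genes were called (7.93% higher, 6.22% lower). Those that fell were Wnt8a (-3.03 log2, limma adjusted p = 6.0e-17), Wnt3 (-1.92), Fzd10 (-1.55) and Sfrp4 (-1.08). Those that rose were Dkk1 (1.86), Dkk2 (1.22), Fzd2 (1.19), Sfrp1 (1.18), Wnt11 (1.02) and Wnt2b (0.99). Dkk2 passed the filter only through its day 4 levels, with a mean of 0.54 log2(TPM + 1) over the 24 libraries, and so did Dkk1. In these cells Dkk2 was at 0.05 TPM at day 0 and 1.47 TPM at day 4. The calls of both as higher thus rest on the libraries that let them be tested. Without the day 4 replicate that stood apart 12 were called, 7 higher and 5 lower (14.5% of all genes), Wnt7a joining the first and Rspo1 the second. Fibroblast markers were at a summed 28.5 to 29.9 TPM at day 0 and 208 to 279 TPM at day 4 (269 to 279 TPM without that replicate), 5 of 6 called higher. Their part in these changes was not tested. Day 0 is here the si-Rsl24d1 group in which Wnt8a, Wnt3 and Fzd10 were high and Sfrp1 low. With rescue, 9 were called in si-CTL cells (7 higher, 2 lower, against 15.6% of all genes, 10.7% higher and 4.82% lower) and 11 in si-Rsl24d1 cells (6 higher, 5 lower, against 14.9%, 9.34% higher and 5.57% lower), and Dkk1 rose by 1.71 and 1.84 log2 in them. After median of ratios scaling these were 5 higher and 4 lower, and 4 higher and 5 lower. Dkk1 was called higher, and Sfrp4 and Wnt8a lower, in all 4 of these comparisons between days, with the limit given above for Dkk1.

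The siRNA by day interaction tests whether the siRNA effect differed between day 4 and day 0. It called 6 of the 36, 2 positive and 4 negative, where 5.61% of all genes were called (2.90% positive, 2.71% negative), and the median of all genes was 0.14 log2 as deposited and 0.02 after median of ratios scaling. It was -1.96 for Wnt8a, -1.38 for Wnt3, -1.09 for Fzd10 and -0.87 for Wnt9a, and 1.15 for Sfrp1 and 0.85 for Fzd7. At day 4 the values of Wnt8a were 0.75, 0.70 and 0.55 log2(TPM + 1) in si-CTL and 0.98, 0.91 and 0.90 in si-Rsl24d1, and those of Wnt3 were 1.53, 1.29 and 1.57 against 1.33, 1.71 and 1.57. Fzd10 was at 2.49, 2.33 and 2.43 against 2.37, 2.62 and 2.63. Sfrp1 was at 3.71, 3.67 and 3.75 against 3.32, 3.74 and 3.70, so that the groups overlapped for Wnt3, Fzd10 and Sfrp1 and stayed apart for Wnt8a. Wnt9a was at 2.64, 2.59 and 2.74 against 2.84, 3.14 and 2.95, still apart at day 4. Fzd7 was at 4.36, 4.32 and 4.45 against 4.63, 4.93 and 4.92 at day 4, whereas at day 0 it was at 5.35, 5.20 and 5.16 against 4.84, 4.94 and 4.72, so the direction between siRNAs differed between days. After median of ratios scaling 1 positive and 4 negative genes were called, since Fzd7 was at 0.71. It was also under the threshold without any 1 of 6 of the 12 libraries (0.80 to 0.85), as was Wnt9a without day 4 si-CTL replicate 3 (-0.83) or si-Rsl24d1 replicate 1 (-0.80). Without the day 4 replicate that stood apart 3 positive and 3 negative genes were called (6.87% of all genes), Fzd5 in place of Wnt9a. Wnt6 (-0.68 log2) was not called, and Wnt5a did not pass the adjusted p.

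At day 4 without rescue the siRNA comparison called 2 of the 36, both higher, where 1.63% of all genes were called (1.45% higher). Wnt5a was at 0.68, 0.89 and 0.82 log2(TPM + 1) in si-CTL and 1.56, 1.87 and 1.74 in si-Rsl24d1 (0.93 log2, SE 0.11, limma adjusted p = 3.8e-06), and is thus the only one of the 36 tested that was called higher without rescue at both days. Rspo3, an R-spondin, was at 0.51, 0.64 and 0.57 against 1.29, 1.42 and 1.57 (0.86 log2, SE 0.08, adjusted p = 3.9e-07). The groups did not overlap in either gene, as for 37.1% of all genes in that direction. Neither gene passed the fold threshold after median of ratios scaling (0.83 and 0.77 log2) or with 2 added to the TPM, and Rspo3 was under it without replicate 1 of si-CTL (0.82) or replicate 3 of si-Rsl24d1 (0.78), which left 1 gene called. Without the si-Rsl24d1 replicate that stood apart, Wnt5a was 1.01 and Rspo3 0.92 log2 and 3 genes were called, Fzd1 being the third.

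By the adjusted p alone 16 passed at day 4, 15 higher and 1 lower (Sfrp2, -0.27 log2), where 30.9% of all genes passed (24.9% higher, 6.04% lower). Without the si-Rsl24d1 replicate that stood apart 19 passed, all higher, where 40.2% of all genes passed (33.3% higher). All 10 Frizzled genes had a positive estimate and 5 passed, Fzd1 at 0.80 and Fzd4 at 0.66 log2. The median of the 36 was 0.25 log2, against 0.13 over all genes, and 0.31 against 0.16 without that replicate. After median of ratios scaling these medians were 0.18 and 0.00, and the estimates of Fzd2, Fzd9 and Fzd10 turned negative. The summed ligand level was 29.2, 36.9 and 33.3 TPM in si-Rsl24d1, the first in the replicate that stood apart, and 22.9 to 25.7 TPM in si-CTL. Among the pathway lists Wls (0.88 log2) and Myc (0.93) were called higher, and none was called lower. Without that replicate Lef1 and Prickle1 were called higher as well. In the same libraries fibroblast markers were at a summed 208 to 279 TPM in si-Rsl24d1 (the lowest in the replicate that stood apart) and 106 to 115 TPM in si-CTL, 3 of 6 called higher with Col3a1 at 2.05 log2. Primitive endoderm markers were at 31.3 to 39.2 and 15.6 to 20.5 TPM with 2 of 5 called higher. Neural markers were at 47.4 to 58.7 and 34.8 to 35.4 TPM with 1 of 4 called higher, Nes at 1.17 log2, and trophectoderm markers at 30.2 to 35.3 and 20.2 to 24.4 TPM with none called. The part of these marker changes in the higher Wnt5a and Rspo3 was not tested.

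With rescue at day 4 the siRNA comparison called none of the 36 (0.730% of all genes), and 15 had an unadjusted p under 0.05 (41.7%, against 25.5% of all genes). There 5 passed the limma adjusted p (5.87% of all genes): Rspo3 was 0.44 log2 higher, and Sfrp2 (-0.48), Wnt3 (-0.44), Wnt7a (-0.36) and Wnt4 (-0.26) were lower. The summed ligand level as deposited was 24.99 to 26.1 TPM in si-Rsl24d1 and 26.6 to 29.5 TPM in si-CTL, the reverse of the order without rescue. This small gap was not tested, and the sums were not rescaled by the median of ratios. Rescue compared directly in si-Rsl24d1 cells at day 4 called none (0.0851% of all genes) and put 16 under an unadjusted p of 0.05 (44.4%, against 24.2% of all genes). By the adjusted p 4 were lower (4.23% of all genes), Wnt5a (-0.47 log2), Rspo3 (-0.38), Wnt9a (-0.33) and Dkk3 (-0.31). Without the si-Rsl24d1 replicate that stood apart none was called (0.134% of all genes) and 11 were lower by the adjusted p (7.40% of all genes), these 4 among them.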

How the data were processed

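RNA of 24 libraries, 3 in each of 8 groups by the sample labels, was sequenced by the authors and quantified per gene. The processing notes name STAR 2.7.8a, Salmon 1.4.0 and the human build GRCh38, whereas the study's methods give a mouse build, and gene symbols and levels in the table are those of mouse. The methods give a stranded total RNA kit and the labels a poly-A kit. The deposited values are log2(TPM + 1), and the TPM of every library summed to 1000000, so read depth is unknown, no counting interval can be given and no count test was used. No pair of libraries was identical (highest correlation 0.991).

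From these values limma 3.58.1 (R 4.3.3, trend) was fitted on all 24 libraries with 8 group means and no replicate term. It covered 16447 genes with a mean of at least 0.5, with Benjamini-Hochberg adjustment over all of them, for 13 comparisons that share control groups. The step was tested on simulated data. A gene was called at an adjusted p under 0.01 and over 1.8-fold. The design text calls the triplicates independent. Samples of the same replicate number did not deviate together on average, which cannot show whether they were prepared together. Alternatives were 0.1 or 2 added to the TPM, no filter or a mean of 1.5, median of ratios scaling, a replicate block, only the groups compared, no fold threshold, another control and each library left out.

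The 45 genes and the pathway and marker lists were chosen with earlier results of these data known. Every one of the 45 could be named, with full values for those called in an siRNA, rescue or interaction comparison or between days in si-CTL cells without rescue, and at most 3 called genes per list and direction otherwise. The targets and secretion genes given without a call, and the ligands and Rspo2 under the filter, were chosen after their values were seen. Positions are from GENCODE (GRCm38) and promoter windows from RefSeq (GRCm38.p6).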

Additional observations from a re-analysis of the deposited data

Results flagged for a closer look

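For 6 genes the siRNA effect without rescue differed between day 4 and day 0 by the interaction term of the limma fit, past both the adjusted p and the fold threshold. The difference of log2 changes, day 4 minus day 0, was -1.96 for Wnt8a (SE 0.11, adjusted p = 1.0e-10), -1.38 for Wnt3 (SE 0.14, adjusted p = 2.4e-07), -1.09 for Fzd10 (SE 0.11, adjusted p = 2.4e-07) and -0.87 for Wnt9a (SE 0.11, adjusted p = 4.5e-06). It was 1.15 for Sfrp1 (SE 0.14, adjusted p = 2.1e-06) and 0.85 for Fzd7 (SE 0.12, adjusted p = 1.2e-05). Rsl24d1 itself had an interaction of 1.91, from an effect of -1.95 at day 0 and -0.04 at day 4. Its part in these differences was not tested.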

How the results depend on the processing

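No alternative reversed the direction of a called gene, and the 7 calls at day 0 without rescue numbered 7 without any 1 library. The fold threshold and the value added to the TPM moved the counts most, and no count rests on known depth. Without the fold threshold 15 of the 36 passed for siRNA at day 0 without rescue and 8 with it, 9 for rescue in si-Rsl24d1 cells at day 0 and 4 at day 4, 16 and 5 for siRNA at day 4 without and with rescue, 17 for the siRNA by day and 2 for the siRNA by rescue interaction. Of all genes 30.4% and 13.7% passed for siRNA at day 0 without and with rescue. For rescue in si-Rsl24d1 cells 15.3% passed at day 0 and 5.17% at day 4. For siRNA at day 4 without and with rescue 30.9% and 5.87% passed. For the siRNA by day and siRNA by rescue interactions 30.9% and 2.09% passed. In an alternative chosen after seeing the data, which also left out replicate 1 of si-Rsl24d1 at day 4, 19 passed for siRNA at day 4 without rescue, 11 for rescue in si-Rsl24d1 cells at day 4, 24 between days in si-Rsl24d1 cells without rescue and 20 for the siRNA by day interaction. Of all genes 40.2%, 8.36%, 54.8% and 37.7% passed there, in that order. Between days 26 and 25 passed without rescue in si-CTL and si-Rsl24d1 cells, and 23 and 27 with rescue. Most genes passed there, 60.9% and 55.8% of all without rescue and 59.2% and 58.1% with it. With 0.1 added, 5 were called for siRNA at day 0 with rescue, 1 for rescue in si-Rsl24d1 cells at day 0, 16 and 20 between days without rescue in si-CTL and si-Rsl24d1 cells, 16 in si-CTL cells with rescue, 8 and 1 for siRNA at day 4 without and with rescue and 12 for the siRNA by day interaction. With 2 added, 1 was called for siRNA at day 0 with rescue, 3 between days in si-CTL cells without rescue, 5 in each siRNA group with rescue and 0 for siRNA at day 4 without rescue. With a mean of 1.5 as the filter, which tests fewer genes, 5, 6 and 7 were called between days in si-CTL and si-Rsl24d1 cells without rescue and si-Rsl24d1 cells with it, and 0 for siRNA at day 4 without rescue. Median of ratios scaling left 0 there too, with 16 of the 36 past the adjusted p as deposited. Counts with 0.1 or 2 added or with the other filter stand without a share of all genes. They show only how the calls depend on the setting.

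Leaving out 1 library at a time gave 0 to 1 for rescue in si-Rsl24d1 cells at day 0, 0 to 1 for the siRNA by rescue and 5 to 7 for the siRNA by day interaction, 1 to 3 for siRNA at day 4 without rescue and 2 to 3 for siRNA at day 0 with rescue. Between days it gave 7 to 8 and 10 to 12 without rescue, and 9 to 10 and 9 to 11 with rescue, in si-CTL and si-Rsl24d1 cells. The pairing of samples by number was checked on residuals, whose correlation averaged -0.017 for the 84 same-numbered pairs and 0.0087 for the 168 others. With the replicate block the count at day 0 without rescue was 7 and no count of called genes changed.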

Other observations

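At day 4 without rescue Wnt1, the neighbour of Wnt10b, was at 0.04, 0.11 and 0.06 log2(TPM + 1) in si-CTL and at 0.37, 0.31 and 0.26 in si-Rsl24d1. Wnt10b was at 1.21, 1.02 and 1.35 against 1.57, 1.96 and 1.89 (0.61 log2, limma adjusted p = 0.00024, not called). Both were higher in every si-Rsl24d1 library, as were 37.1% of all genes, and Wnt1 was under the filter. The other untested genes without values above, Dkk4, Rspo2, Wnt16 and Wnt2, were each at or below 0.52 log2(TPM + 1) in every library. In the fit without the filter Rspo2 was 0.30 log2 higher in si-Rsl24d1 at day 4 without rescue (limma adjusted p = 2.8e-05). Its mean was 0.11 TPM in si-CTL and 0.365 TPM in si-Rsl24d1, and it was not called. Dkk4, Wnt16 and Wnt2 did not pass the adjusted p in that comparison. In the main fit 30.9% of the tested genes passed there.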
